A study of Mus musculus with 36 samples.

Results

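The 7 genes described here encode the receptor chains for type I interferon (Ifnar1, Ifnar2), the receptor chains for interferon-gamma (Ifngr1, Ifngr2) and the Janus kinases that these chains carry (Jak1, Jak2, Tyk2). They were chosen by name from the pathway, with earlier results of these data known. All 7 were among the 24127 genes of the deposited table and among the 11853 genes tested. RNA was sequenced from dendritic cells raised in GM-CSF cultures of mouse bone marrow and then selected for CD11c, an integrin carried by dendritic cells. The strain label of all libraries was C57BL/6. Cells of wild-type mice (WT) and of mice labelled LGP2-/- (Dhx58-/-, here KO) were either transfected with 20 ng of PAMP RNA, a poly-U/UC RNA of hepatitis C virus that activates the RNA sensor RIG-I, or served as mock controls, which the labels also call untreated. RNA was taken after 1, 3 or 6 h, with 3 libraries in each of the 12 groups and 36 libraries in all. LGP2 is an RNA helicase related to RIG-I, and the comparison of genotypes asks how cells without it respond to a RIG-I agonist. The labels tie no library to a mouse, so p-values measure the spread between plated replicates. KO means here that a library carries that label.

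Type I interferon binds IFNAR1 and IFNAR2, which carry TYK2 and JAK1. Interferon-gamma binds IFNGR1, the main ligand-binding chain and a carrier of JAK1, and IFNGR2, the accessory chain that brings JAK2. The kinases then phosphorylate STAT proteins. A complex with IRF9 binds interferon-stimulated response elements (ISRE), and STAT dimers bind gamma-activated sites (GAS). Dendritic cells both make type I interferon after RNA sensing and respond to it through these receptors. RNA levels do not report how much receptor is at the cell surface or how active a kinase is.

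Values are normalized counts, the reads of a gene divided by 1 size factor per library. The libraries held 4740909 to 14255730 reads in genes (median 8159886), and the 7 genes had 304 to 4815 reads in a library. Dhx58 did not follow its label in mock cells: it stood at 93.6 ± 9.71, 132 ± 14.8 and 307 ± 47.6 (mean ± SD, n = 3) in WT mock cells at 1, 3 and 6 h and at 147 ± 58.3, 451 ± 71.7 and 722 ± 87.3 in libraries labelled KO. With PAMP RNA it reached 3005 ± 62.9 in WT and 935 ± 111 in KO libraries at 6 h. A table of counts per gene does not show which exons these reads come from, so this does not check the deletion. Of the dendritic cell markers, 6 of 8 had a mean of at least 10 (Itgax, Zbtb46, Cd74, H2-Ab1, Ccr7, Batf3), while Flt3 and Cd209a had means of 9.26 and 7.58. The 5 macrophage markers measured (Csf1r, Mertk, C1qa, C1qb, Cd68) were also well expressed, with summed counts of 13648 to 27508 against 24576 to 50108 for the dendritic list. T and NK cell markers summed to 1.68 to 18.8 (0 of 6 with a mean of at least 10, Cd3g at 0 in all libraries) and B cell markers to 1.18 to 17.8 (0 of 4). Neutrophil markers summed to 101 to 222 (2 of the 5 measured among 6 listed) and mast cell and basophil markers to 14.3 to 226 (1 of 5, Kit). In bulk libraries, fewer cells of a type and less RNA per cell cannot be told apart.

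In the GENCODE annotation of GRCm38, the build the submitters' notes name, Ifnar2, Ifnar1 and Ifngr2 lie in this order on the + strand of chromosome 16, at 91372783 to 91405589, 91485238 to 91507441 and 91547072 to 91565623. Il10rb, a receptor chain shared by IL-10 and type III interferon, lies between the first of these and Ifnar1, at 91406164 to 91425834. Ifngr1 is on chromosome 10 (19591949 to 19610229, + strand), Jak1 on chromosome 4 (101152367 to 101265282, - strand), Jak2 on chromosome 19 (29251828 to 29313080, + strand) and Tyk2 on chromosome 9 (21104068 to 21131243, - strand). Jak1, Tyk2 and Ifnar2 overlap other annotated genes. Of these, Raver2, which overlaps Jak1, had at most 8.48 normalized counts in a library against at least 1523 for Jak1. The others were not listed by name in the deposited table, so their counts could not be checked. Among them is Gm21970, a protein-coding gene that overlaps Ifnar2 on the same strand. No source used here says that counting used the strand.

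RefSeq promoters (GRCm38.p6, 300 bases, from 250 before to 50 after the annotated start) were available for 7 of 7 genes. They were searched on both strands for a core of the ISRE, GAAANNGAA, and for a core of the GAS, TTCNNNGAA, which reads the same on both strands. The ISRE core was in 0 of 7, against 8.56% of 32851 RefSeq promoters of this length. The GAS core was in 2 of 7, against 8.3% of all, with its first base 5 bases before the start of Ifnar1 and 214 bases before that of Ifnar2. Such a match is a description of letters in this window. The sequences of the type I receptor pair, which hold the matches, and of the 3 genes with the largest responses are given 5′ to 3′ along the gene, with the GAS core in capitals. Windows are Ifnar1 chr16:91484965-91485264 (+ strand), Ifnar2 chr16:91372533-91372832 (+ strand), Ifngr1 chr10:19591699-19591998 (+ strand), Jak2 chr19:29251553-29251852 (+ strand) and Tyk2 chr9:21131226-21131525 (- strand).
Ifnar1: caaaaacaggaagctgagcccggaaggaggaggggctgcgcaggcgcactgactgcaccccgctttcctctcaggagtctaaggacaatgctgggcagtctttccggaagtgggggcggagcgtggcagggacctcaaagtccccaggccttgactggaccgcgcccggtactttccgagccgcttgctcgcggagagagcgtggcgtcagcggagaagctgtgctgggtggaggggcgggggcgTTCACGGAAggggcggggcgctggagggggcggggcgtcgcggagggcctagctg
Ifnar2: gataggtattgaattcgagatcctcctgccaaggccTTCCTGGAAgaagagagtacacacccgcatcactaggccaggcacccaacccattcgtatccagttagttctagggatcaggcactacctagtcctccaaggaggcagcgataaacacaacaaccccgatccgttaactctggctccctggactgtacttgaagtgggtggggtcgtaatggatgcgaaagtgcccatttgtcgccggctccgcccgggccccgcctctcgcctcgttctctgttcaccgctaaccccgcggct
Ifngr1: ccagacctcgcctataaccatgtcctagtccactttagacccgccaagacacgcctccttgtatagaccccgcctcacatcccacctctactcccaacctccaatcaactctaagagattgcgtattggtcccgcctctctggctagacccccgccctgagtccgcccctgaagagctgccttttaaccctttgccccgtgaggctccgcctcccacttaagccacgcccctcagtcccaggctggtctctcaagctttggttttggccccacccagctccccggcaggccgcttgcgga
Jak2: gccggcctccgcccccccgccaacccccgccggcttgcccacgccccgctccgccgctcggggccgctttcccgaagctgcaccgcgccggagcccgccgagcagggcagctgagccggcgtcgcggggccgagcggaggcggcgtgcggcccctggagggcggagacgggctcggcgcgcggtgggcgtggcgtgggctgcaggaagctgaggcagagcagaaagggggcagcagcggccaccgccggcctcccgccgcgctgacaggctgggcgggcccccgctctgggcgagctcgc
Tyk2: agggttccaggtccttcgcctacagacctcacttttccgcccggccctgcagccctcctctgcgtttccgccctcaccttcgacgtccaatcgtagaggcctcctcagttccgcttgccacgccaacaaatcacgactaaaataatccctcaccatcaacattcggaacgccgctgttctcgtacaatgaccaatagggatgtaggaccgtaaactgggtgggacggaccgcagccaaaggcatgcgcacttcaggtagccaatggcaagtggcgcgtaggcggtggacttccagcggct
The Jak2 window was 81% G and C and held neither core. The windows of Ifngr1 (60.3% G and C) and Tyk2 (58%) held neither as well.

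To compare genes with each other, counts were divided by the exon length of their protein-coding transcripts. On this per-kb scale in WT mock cells at 1 h, Ifngr1 (555) and Jak2 (535) were highest, followed by Ifnar1 (430.2), Jak1 (339) and Ifngr2 (314). Tyk2 (157) and Ifnar2 (149.7) were lowest. After 6 h of PAMP RNA in WT cells the order per kb was Jak2 (808), Ifnar1 (701), Ifngr2 (485), Tyk2 (439), Jak1 (403), Ifngr1 (247) and Ifnar2 (211). These ranks depend on the length used. With the exons of all annotated transcripts, an alternative chosen after seeing the data, Jak2 (535) was above Ifngr1 (411) in WT mock cells at 1 h, and Ifngr1 (183) was last, below Ifnar2 (201), after 6 h of PAMP RNA. With protein-coding transcripts Ifnar2 had the lowest mean per kb of the 7 genes in each group except KO cells after 6 h of PAMP RNA, where Ifngr1 (220.2) was below Ifnar2 (254). With all exons Tyk2 was lowest in several groups, such as WT mock cells at 1 h (127 against 143 for Ifnar2).

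**Figure D1:**
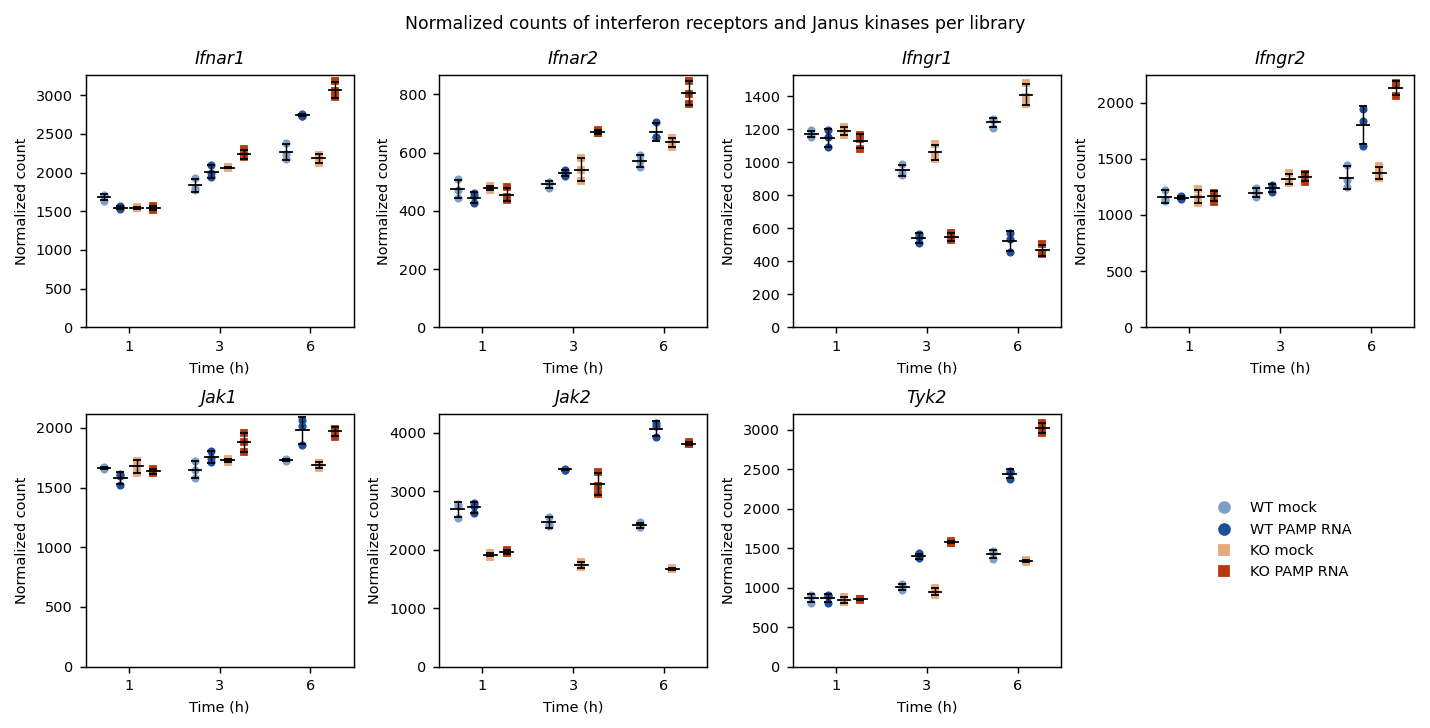
Normalized counts (y axis, linear from 0) of the 7 genes at 1, 3 and 6 h (x axis) in WT (circles) and KO (squares) libraries, mock (pale) or with PAMP RNA (dark). Points are libraries, and black marks are the mean and SD of 3. Ifngr1 with PAMP RNA lies between 442 and 572 at 3 and 6 h, below every mock library, while Jak2 and Tyk2 at 3 and 6 h lie above the mock libraries of their genotype and time.

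At 1 h no member passed the test between PAMP RNA and mock, with log2 differences of -0.12 (Ifnar1) to 0.02 (Jak2) in WT cells. By 3 h Ifngr1 had fallen to 0.57 times its mock level in WT and 0.52 times in KO cells, and Jak2 and Tyk2 had risen in both genotypes. At 6 h these 3 changes were larger, and the remaining 4 genes stood above mock on the scale of the deposited values, by 0.19 to 0.43 (log2) in WT cells, with a sign that 3 of them lose under other scalings. A gene was called where its adjusted p, from limma with Benjamini-Hochberg adjustment over all genes tested, was under 0.05, and all p-values were two-sided. In WT cells 0 of 7 members were called at 1 h (1 at an unadjusted p under 0.05, 0 by edgeR and 0 by DESeq2), where 0.945% of all genes tested were called. At 3 h 4 were called, 3 up and 1 down (41.6% of all genes, 19.6% up and 22.0% down), and at 6 h 7, with 6 up and 1 down (65.4% of all genes, 32.1% up and 33.3% down). In KO cells the counts were 0 at 1 h (0 at an unadjusted p under 0.05, 0 by edgeR and 0 by DESeq2, against 1.36% of all genes), 6 at 3 h, with 5 up and 1 down (50.6% of all genes, 23.8% up and 26.9% down), and 7 at 6 h, with 6 up and 1 down (71.7% of all genes, 35.1% up and 36.5% down). Most genes were called at 6 h, so the count of 7 says little about these genes. On the scale of the deposited values the median change of the members at 6 h was 0.28 in WT and 0.49 in KO cells. All genes had medians of -0.02 and -0.03 there. The median member was Ifnar1 in both genotypes, and the sign of its change depends on the scaling.

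**Figure D2:**
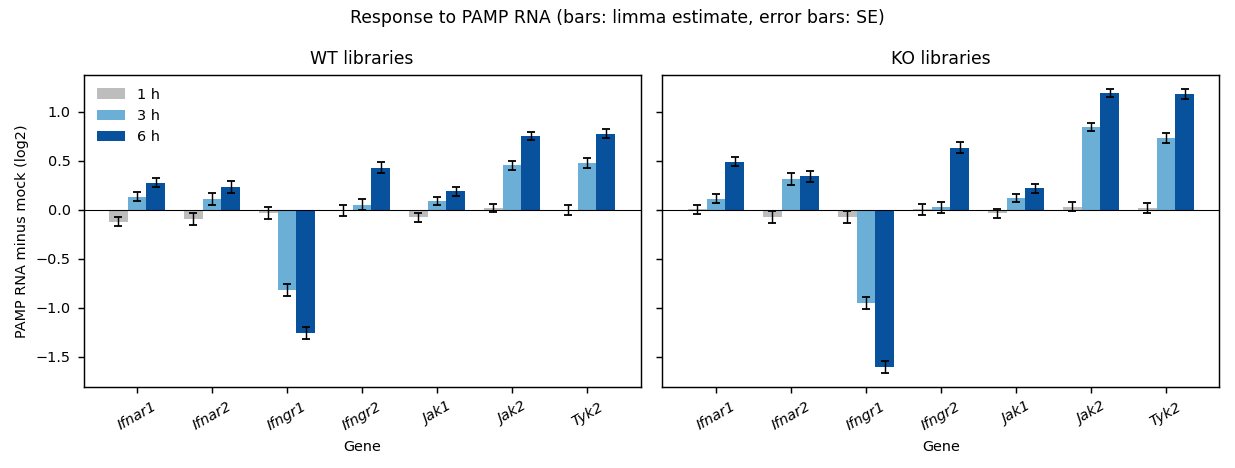
Change with PAMP RNA against time-matched mock (log2 of normalized count + 1, bars with SE from limma) of the 7 genes at 1, 3 and 6 h, WT libraries left and KO libraries right. Ifngr1 is the one bar that points well below 0, at -1.25 in WT and -1.60 in KO cells at 6 h, and Jak2 and Tyk2 are the tallest bars above 0.

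Ifngr1, the ligand-binding chain for interferon-gamma, was the member with the largest change. WT mock libraries held 942, 987 and 924 normalized counts at 3 h and 1255, 1259 and 1209.8 at 6 h. With PAMP RNA the same cells held 548, 509 and 564 at 3 h and 572, 537 and 457 at 6 h. All PAMP RNA libraries lay below all mock libraries at both times. The log2 change was -0.82 (SE 0.061, adjusted p = 6.79e-16) at 3 h and -1.25 (SE 0.061, adjusted p = 4.34e-23) at 6 h, or 0.42 times the mock level at 6 h. In KO libraries Ifngr1 was at 1354, 1478 and 1398 in mock libraries at 6 h, against 505, 448 and 442 in treated ones, again without overlap. There the log2 change was -0.95 (SE 0.061, adjusted p = 1.74e-18) at 3 h and -1.60 (SE 0.061, adjusted p = 1.82e-27) at 6 h. Levels with PAMP RNA were 540.3 ± 28.5 at 3 h and 522 ± 59.0 at 6 h in WT cells (mean ± SD, n = 3), with overlapping ranges, and 546 ± 22.3 and 465 ± 35.1 in KO cells, without overlap. The WT mock level was higher at 6 h than at 3 h, at 1241 ± 27.4 against 951 ± 32.6, so the larger change at 6 h went with a higher control.

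Ifngr2, the JAK2-bearing partner chain, stood above mock at 6 h only, on the scale of the deposited values. At 3 h WT mock cells held 1239.8, 1163 and 1192 and PAMP RNA cells 1268, 1254 and 1202, which overlap, and the log2 difference of 0.05 did not pass the test (adjusted p = 0.503). At 6 h mock cells held 1444, 1245 and 1309 and PAMP RNA cells 1838, 1614 and 1944, with no overlap, and the log2 change was 0.43 (SE 0.056, adjusted p = 4.64e-09). In KO libraries the differences were 0.02 at 3 h (adjusted p = 0.753) and 0.63 (SE 0.056, adjusted p = 6.66e-14) at 6 h. With quantile normalization and with equal total reads, Ifngr2 at 6 h was at 0.03 and 0.06 in WT cells, neither called, and at 0.10 (not called) and 0.14 (called) in KO cells. At 3 h in KO cells it was at -0.26 and -0.23, both called as falls. The ratio of Ifngr1 to Ifngr2 counts is free of the size factor of a library. It was 1.01 ± 0.032 (mean ± SD, n = 3) in WT mock cells at 1 h, 0.794 ± 0.048 at 3 h and 0.935 ± 0.072 at 6 h. With PAMP RNA it was 0.992 ± 0.036 at 1 h, 0.436 ± 0.032 at 3 h and 0.293 ± 0.051 at 6 h. In KO cells at 3 h it was 0.804 ± 0.059 in mock and 0.408 ± 0.029 with PAMP RNA. In KO cells at 6 h it was 1.02 ± 0.007 in mock and 0.218 ± 0.015 with PAMP RNA. The chains of the interferon-gamma receptor therefore changed unequally, whatever size factor a library is given.

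**Figure D3:**
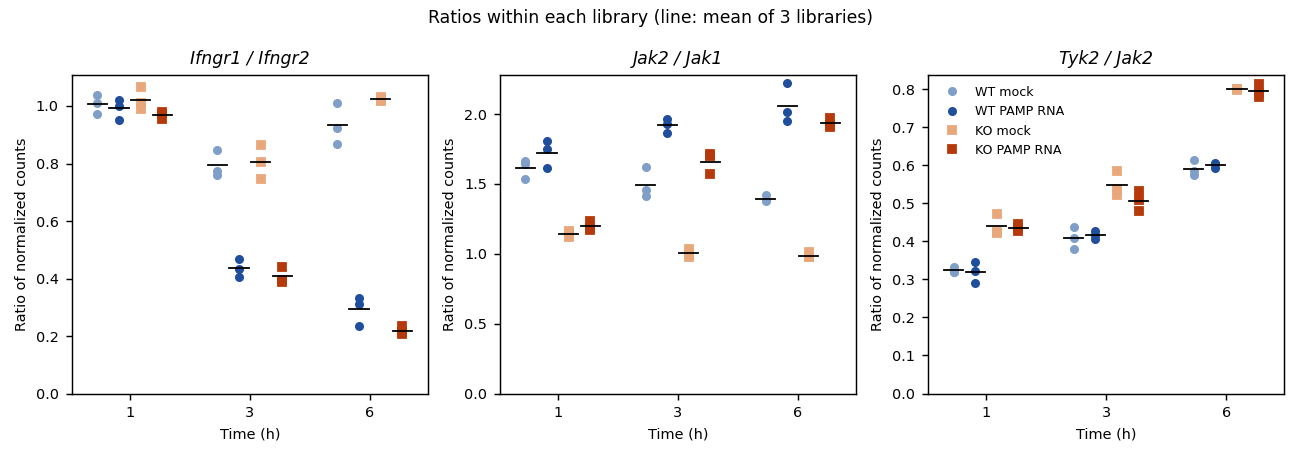
Ratios of normalized counts within each library (y axes from 0) by time (x axis), for Ifngr1 to Ifngr2, Jak2 to Jak1 and Tyk2 to Jak2; points are libraries and lines are means of 3. The first ratio falls with PAMP RNA from 3 h on, the second rises with PAMP RNA, and the third rises with time in mock and PAMP RNA cells alike.

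On the scale of the deposited values, the type I receptor chains changed less at 6 h than Ifngr1, Jak2 and Tyk2 in both genotypes. Ifnar1, which carries TYK2, stood at 2385, 2174 and 2239 in WT mock libraries at 6 h, against 2731, 2760.3 and 2733 in treated ones, all PAMP RNA libraries being higher. The log2 change was 0.14 (SE 0.043, adjusted p = 0.0098) at 3 h and 0.28 (SE 0.043, adjusted p = 3.42e-07) at 6 h. At 6 h KO libraries held 2204, 2120.1 and 2230.2 in mock and 3184, 2982 and 3051 with PAMP RNA, a log2 change of 0.49 (SE 0.043, adjusted p = 5.45e-14). Ifnar2, which carries JAK1, stood at 593, 569.6 and 550.2 in WT mock libraries at 6 h and 653, 652 and 706 in treated ones, a change of 0.23 (SE 0.059, adjusted p = 0.000725). The change of Ifnar2 in KO cells at 6 h was 0.34 (adjusted p = 2.04e-06). At 3 h its change was 0.11 in WT (adjusted p = 0.139, not called) and 0.31 (SE 0.059, adjusted p = 1.52e-05) in KO cells, a pair whose difference of 0.20 did not pass the test (adjusted p = 0.234, 95% interval, not adjusted for the number of genes, 0.03 to 0.38). The ratio of Ifnar2 to Ifnar1 counts was 0.252 ± 0.0087 in mock and 0.245 ± 0.012 in treated WT cells at 6 h, values whose ranges overlap. In KO cells the ratio was 0.262 ± 0.019 in mock and 0.300 ± 0.010 in treated libraries at 3 h. At 6 h it was 0.291 ± 0.0051 in KO mock and 0.262 ± 0.0047 in treated KO libraries. The KO ranges overlapped at neither time, the ratio being higher with PAMP RNA at 3 h and lower at 6 h. The Ifnar1 call at 3 h was lost in WT cells without mock replicate 2 (0.11) or PAMP RNA replicate 3 (0.11), and in KO cells without mock replicate 1 or 2 or PAMP RNA replicate 2 (0.09 to 0.11) and with edgeR (0.10). The sign of the rises of Ifnar1 and Ifnar2 depends on the scaling, as given with the plot of scaling methods.

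Jak2, the kinase of IFNGR2 and of the GM-CSF receptor, rose in both genotypes. WT mock cells held 2396, 2429.8 and 2563 at 3 h and 2388, 2390.2 and 2467 at 6 h. With PAMP RNA they held 3379, 3365 and 3362 at 3 h and 4117, 3922 and 4161 at 6 h, all above mock. The log2 change was 0.45 (SE 0.044, adjusted p = 3.04e-12) and 0.75 (SE 0.044, adjusted p = 4.43e-20), the latter 1.68-fold. KO mock cells held 1714, 1702 and 1793 at 3 h and 1685, 1665 and 1659 at 6 h, and with PAMP RNA 2951, 3080.5 and 3325 and 3797, 3799 and 3837. The change in KO cells was 0.84 (SE 0.044, adjusted p = 7.34e-22) at 3 h and 1.19 (SE 0.044, adjusted p = 4.61e-28) at 6 h, or 2.28-fold at 6 h.

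Tyk2, the kinase of IFNAR1 and of the IL-12 and IL-10 receptors, rose by nearly the same amounts. In WT mock cells it stood at 1048, 995 and 972 at 3 h and 1466, 1369 and 1440.5 at 6 h. With PAMP RNA it stood at 1372, 1434 and 1396 and 2484, 2376 and 2467, without overlap. The log2 change was 0.48 (SE 0.05, adjusted p = 2.5e-11) at 3 h and 0.78 (SE 0.05, adjusted p = 1.37e-18) at 6 h. KO libraries at 6 h held 1350.3, 1334 and 1325 in mock and 2958, 3085 and 3034 with PAMP RNA, a change of 1.18 (SE 0.05, adjusted p = 1.15e-25), after 0.73 (SE 0.05, adjusted p = 1.73e-17) at 3 h. The ratio of Tyk2 to Jak2 counts at 6 h was 0.590 ± 0.021 in WT mock and 0.601 ± 0.0068 in WT PAMP RNA cells, and 0.800 ± 0.0015 and 0.794 ± 0.017 in KO cells. At 1 h it was 0.324 ± 0.0075 in WT and 0.439 ± 0.028 in KO mock cells, so this ratio differed by time and genotype more than by treatment.

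Jak1, the kinase shared by both interferon receptors, was the steadiest of the kinases. WT mock libraries held 1726, 1731 and 1740.2 at 6 h and PAMP RNA libraries 1854, 2014 and 2067, a change of 0.19 (SE 0.045, adjusted p = 0.000242). Over all 36 libraries it ranged from 1523 to 2067. In KO cells the change was 0.12 (SE 0.045, adjusted p = 0.0223) at 3 h and 0.22 (SE 0.045, adjusted p = 2.68e-05) at 6 h, the 3 h call being lost without mock replicate 1 (0.12) or PAMP RNA replicate 3 (0.09) and with edgeR (0.11). The sign of the Jak1 changes depends on the scaling too. The ratio of Jak2 to Jak1 went from 1.39 ± 0.02 in WT mock to 2.06 ± 0.14 in WT PAMP RNA cells at 6 h, and from 0.987 ± 0.022 to 1.93 ± 0.033 in KO cells. The ratio of Tyk2 to Jak1 went from 0.823 ± 0.029 to 1.24 ± 0.089 in WT and from 0.790 ± 0.018 to 1.54 ± 0.059 in KO cells. In both genotypes the libraries with PAMP RNA lay above the mock libraries in both ratios.

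From 3 to 6 h the responses changed for 4 genes in WT cells, against 34.3% of all genes called: Ifngr1 by -0.44 (SE 0.087, adjusted p = 7.08e-05), Ifngr2 by 0.38 (SE 0.079, adjusted p = 0.000162), Jak2 by 0.30 (SE 0.062, adjusted p = 0.000153) and Tyk2 by 0.30 (SE 0.071, adjusted p = 0.000778). In KO cells 5 genes were called (40.8% of all): Ifngr1 with -0.65, Ifngr2 with 0.61, Tyk2 with 0.45, Ifnar1 with 0.38 and Jak2 with 0.35, all at an adjusted p of 1.15e-05 or lower. In WT cells Ifngr1 was the one call left under quantile normalization and under equal total reads. In KO cells Ifngr1 and Ifngr2 were left under the first, and Ifngr1, Ifngr2, Tyk2 and, as a fall of -0.21, Ifnar2 under the second.

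The scaling between libraries decides the small changes. Mean total normalized counts were 7427805 in WT mock and 9621719 in WT PAMP RNA cells at 6 h, and 7394676 and 10365227 in KO cells. Set to equal total reads, the median gene shifted by -0.20 at 3 h and -0.39 at 6 h in WT cells, and by -0.28 and -0.51 in KO cells (log2). Quantile normalization, which gives all libraries the same distribution, gave medians of -0.10, -0.11, -0.11 and -0.13. The share of rises among all genes called was 47.1% at 3 h and 49.0% at 6 h in WT cells, and 23.0% and 20.8% with equal totals. With quantile normalization it was 34.2% and 39.8%. In KO cells it was 47.0% and 49.0%, then 20.8% and 20.2% with equal totals and 34.9% and 39.8% with quantile normalization.

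Under these scalings the fall of Ifngr1 and the rises of Jak2 and Tyk2 at 3 and 6 h kept their direction and passed the test in both genotypes. At 6 h in WT cells Ifngr1 was at -1.43 with quantile normalization and -1.63 with equal totals, Jak2 at 0.25 and 0.38, and Tyk2 at 0.33 and 0.40. In KO cells Ifngr1 was at -1.81 and -2.09, Jak2 at 0.54 and 0.70, and Tyk2 at 0.58 and 0.69. The rises were thus smaller on these scales, and the fall of Ifngr1 larger. Ifnar1 in WT cells at 6 h was at -0.20 and -0.10, and Jak1 at -0.23 and -0.18, all falls that passed the test. Ifnar2 was at 0.02 and -0.14, and Ifngr2 at 0.03 and 0.06. Relative to the median gene, Ifnar1 in WT cells at 6 h was 0.30 higher as deposited, 0.30 higher with equal totals and at -0.09 with quantile normalization. edgeR and DESeq2 on the recovered reads gave Ifnar1 0.27 and 0.28.

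**Figure D4:**
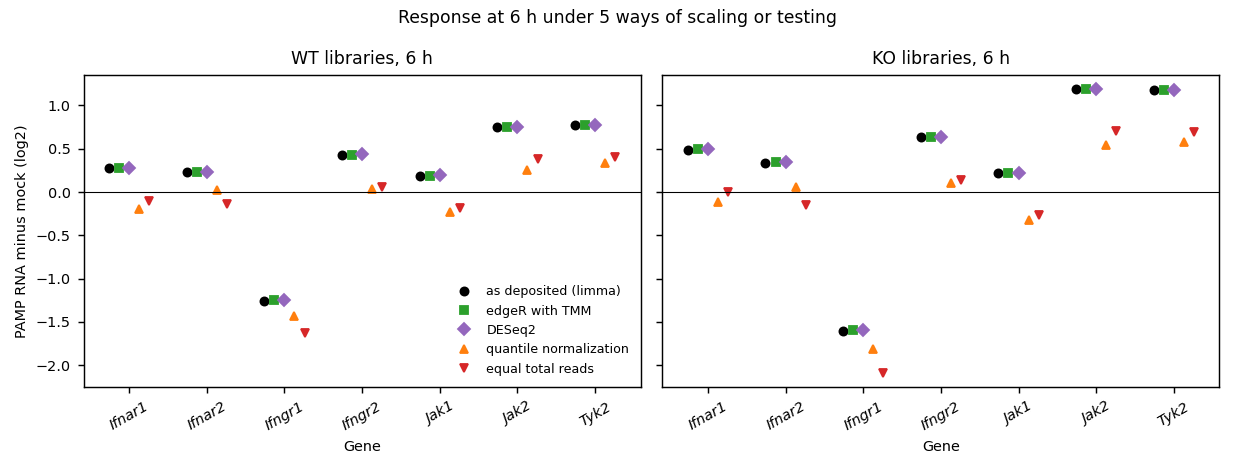
Change with PAMP RNA at 6 h (log2, y axis) of the 7 genes in WT (left) and KO (right) libraries under the deposited scaling with limma, edgeR with TMM, DESeq2, quantile normalization and equal total reads. Ifngr1 stays below 0 and Jak2 and Tyk2 above 0 with each method, while Ifnar1, Ifnar2 and Jak1 change sign between methods in at least 1 genotype.

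Mock cells of the genotypes differed in 1 member by a large amount. Jak2 was lower in KO mock libraries at every time, with 1944, 1879 and 1922 at 1 h against 2784, 2542 and 2741 in WT. KO levels were 71.2%, 70.5% and 69.1% of WT at 1, 3 and 6 h, and the ranges did not overlap at any of them. Averaged over time the log2 difference was -0.51 (SE 0.025, adjusted p = 2.67e-21), and it passed under every alternative run. Of the 7 genes 3 were called in this comparison (22.2% of all genes), the others being Ifngr1 with 0.12 (SE 0.035, adjusted p = 0.0101) and Ifnar2 with 0.10 (SE 0.034, adjusted p = 0.025). Neither was steady over time. Ifngr1 was at 0.02, 0.15 and 0.18 at 1, 3 and 6 h. It was called at 6 h only (adjusted p = 0.0439, where 1309 of 11853 genes were called). Ifnar2 was at 0.02, 0.14 and 0.15 and was called at no single time. The average over time also hides opposite differences of Ifnar1. In KO mock cells it was 91.7% of WT at 1 h (log2 -0.12, adjusted p = 0.0547, not called) and 113% at 3 h (log2 0.17, adjusted p = 0.00563, where 974 of 11853 genes were called), both without overlap, and 96.4% at 6 h with overlap. The Ifnar2 call was lost when any of 4 single libraries was left out (WT mock replicate 3 at 1 h or 6 h, KO mock replicate 2 at 3 h, KO mock replicate 1 at 6 h), with changes of 0.08 to 0.10. Tyk2, at -0.07, was not called (adjusted p = 0.0576) but was by DESeq2, at -0.08 (adjusted p = 0.0465), and without any of 5 single mock libraries (WT replicate 2 at 1 h or 6 h or 3 at 3 h, KO replicate 2 at 1 h or 1 at 3 h), at -0.09 to -0.08. The summed dendritic cell markers were also lower in KO mock libraries, 24576 to 30802 against 36562 to 43885 in WT. The sum was carried by Ccr7, Cd74 and H2-Ab1, at means of 3269.9, 15457 and 5282 against 5596, 22171 and 8249.6. Itgax, Zbtb46 and Batf3 were nearer, at 2925, 225 and 289 against 3124, 298 and 335. Of the low markers, Flt3 was lower (4.46 against 12.1) and Cd209a higher (8.90 against 7.71) in KO mock libraries. The macrophage sums were 14032 to 24601 and 15174 to 25766, and their members went both ways. Csf1r, Mertk and Cd68 had means of 7112, 388 and 2069 in KO against 6554, 383 and 1771 in WT mock libraries. C1qa and C1qb had means of 2191 and 7192 against 3193 and 8604. The part of these markers in the Jak2 difference was not tested, and the mice or cultures behind each genotype cannot be told apart from the genotype.

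The response itself differed between genotypes for a few members. At 1 h 0 of 7 differed by limma (0 at an unadjusted p under 0.05, 0 by edgeR and 0 by DESeq2), against 0.118% of all genes. At 3 h 2 were called (3.14% of all genes), Jak2 with 0.39 (SE 0.062, adjusted p = 4.8e-05) and Tyk2 with 0.25 (SE 0.071, adjusted p = 0.0346). At 6 h 4 were called (10.5% of all genes): Jak2 with 0.44 (SE 0.062, adjusted p = 2.28e-06), Tyk2 with 0.40 (SE 0.071, adjusted p = 8.67e-05), Ifnar1 with 0.22 (SE 0.061, adjusted p = 0.016) and Ifngr1 with -0.35 (SE 0.087, adjusted p = 0.00579). In each case the response of KO cells was the larger in size. For Ifngr2, Ifnar2 and Jak1 the differences at 6 h were 0.20 (unadjusted 95% interval 0.04 to 0.36, adjusted p = 0.101), 0.11 (-0.06 to 0.28, adjusted p = 0.469) and 0.03 (-0.10 to 0.16, adjusted p = 0.835). The share of positive differences among all genes called was 82.3% at 3 h and 63.6% at 6 h, 64.3% and 41.6% under quantile normalization, and 48.5% and 23.3% with equal totals.

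The levels behind these differences were not alike. With PAMP RNA Jak2 in KO cells was 71.9%, 92.6% and 93.7% of WT at 1, 3 and 6 h, still below WT without overlap, so its larger response started from a lower mock level and ended nearer the WT level. With PAMP RNA at 6 h the summed dendritic markers were 38405 to 39124 in KO and 49114 to 50108 in WT libraries, and their part in these differences was not tested. Tyk2 with PAMP RNA was 113% and 124% of WT at 3 and 6 h, above WT without overlap. Ifngr1 with PAMP RNA was 89.1% of WT at 6 h with overlapping ranges, and in mock cells 114%. Ifnar1 was 96.4% in mock and 112% with PAMP RNA at 6 h. The Jak2 calls at 3 and 6 h, and those of Tyk2 and Ifngr1 at 6 h, held under every alternative. The Tyk2 call at 3 h was lost under both other scalings. It was also lost without any of 8 single libraries, with changes of 0.22 to 0.26 and adjusted p of 0.0585 to 0.115. Over all alternatives this Tyk2 difference was at least 0.18 and its adjusted p at most 0.225. The Ifnar1 call at 6 h was lost under both other scalings (0.08 and 0.10) and without WT mock replicate 1, KO mock replicate 2 or KO PAMP RNA replicate 1 of 6 h (0.18 to 0.19).

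Mock cells also changed with time in culture. Tyk2 rose from 893, 809 and 911 at 1 h to 1466, 1369 and 1440.5 at 6 h in WT cells, a log2 change of 0.71 (SE 0.05, adjusted p = 6.13e-17), and by 0.67 (SE 0.05, adjusted p = 4.63e-16) in KO cells. Ifnar1 rose by 0.43 (SE 0.043, adjusted p = 7.21e-12) in WT and 0.50 (SE 0.043, adjusted p = 5.74e-14) in KO cells. Ifnar2 rose by 0.27 and 0.40, and Ifngr2 by 0.19 and 0.24, the WT value being lost without WT mock replicate 1 of 6 h (0.13, adjusted p = 0.0536). Jak2 fell by 0.15 and 0.20, opposite to its response. Ifngr1 was at 0.08 in WT (adjusted p = 0.237) and 0.25 (SE 0.061, adjusted p = 0.000528) in KO cells. Jak1, at 0.06 and 0.01, was called in neither. In all, 5 of 7 members were called in WT (61.4% of all genes) and 6 in KO cells (62.7%). The macrophage marker sum was 14032 to 16418 in mock libraries at 1 h and 23651 to 25766 at 6 h, and its part in these changes was not tested. The responses above compare PAMP RNA with mock of the same time.

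The wider pathway was followed in lists of genes around the receptors. They were chosen for their place in the pathway, with earlier results of these data known. Of 11 interferon genes tested among 21 listed, 5 were called up at 1 h and 11 at 6 h in WT cells. Of all genes 0.945% were called in either direction at 1 h, and 32.1% were up at 6 h. Ifnb1, which encodes interferon-beta, stood at 0.839 ± 1.45 in mock and 1287 ± 90.6 in treated WT libraries at 6 h, and at 1.74 ± 0.899 and 1782 ± 98.6 in the corresponding KO libraries. No fold is given, since mock counts were near 0, and reads of the near-identical interferon-alpha genes may be split between copies. Genes near 0 in mock libraries were tested only because treated libraries raised their mean over all 36 libraries to at least 10. The count of 11 up at 6 h was thus largely fixed by that choice. All 10 type I targets tested were up at 3 and 6 h, with medians of 6.39 and 5.87 in WT cells. At these times 19.6% and 32.1% of all genes were up in WT cells. Ifit1 was at 6.11 and Rsad2, which encodes viperin, at 6.67 at 6 h. In mock cells the type I targets also rose from 1 to 6 h, 10 of 10 in both genotypes, with medians of 2.52 in WT and 2.39 in KO cells. There 61.4% and 62.7% of all genes were called in either direction. Of 8 genes known as interferon-gamma targets, 8 were up at 6 h in WT cells (median 3.63), against 32.1% of all genes. They ran from Iigp1 at 7.57 to Ciita, the regulator of MHC class II genes, at 0.18. At 3 h 7 were up and Ciita was down, at -0.55 in WT and -0.62 in KO cells. At 6 h in KO cells 7 were up (35.1% of all genes), while Ciita, at 0.09, was not called. Type I interferon induces several of these too, and Usp18 and Socs1 are also counted among the brakes. Under both other scalings 7 of the 8 were up and 1 was down, while the counts of ligands and type I targets stayed at 11 and 10 up.

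Stat2 (2.84) and Irf9 (1.33), which act together downstream of the type I receptor, had larger rises at 6 h in WT cells than the 7 receptor and kinase genes. For the lists that follow, 65.4% of all genes tested were called in this comparison, 32.1% up and 33.3% down. Of the brakes on this signalling, 14 of 20 were called up and 2 down at 6 h in WT cells (median 0.29). Socs1, which inhibits the kinases, and Usp18, which binds IFNAR2 and limits type I signalling, were at 4.55 and 4.25, Socs3 at 1.88 and Socs5 at -0.53. With quantile normalization the brakes gave 10 up and 4 down, and with equal totals 8 up and 9 down.

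Among other receptors that use Janus kinases, with Jak3, 16 of 24 were called up and 5 down at 6 h in WT cells (median 0.41), against 32.1% up and 33.3% down over all genes. Il12rb1, the TYK2-binding chain for IL-12 and IL-23, was at 4.06 and Il15ra at 2.62, while Il6ra and Il6st, the chains for IL-6, were at -0.75 and -0.60. The count was 13 up and 8 down with quantile normalization and 10 up and 11 down with equal totals, so the split of this list depends on the scaling. Of 6 genes of receptor traffic and turnover, 3 were called up and 1 down at 6 h in WT cells (median 0.19), a share close to the 65.4% of all genes called. Prkd2, a kinase that marks IFNAR1 for uptake, was at -0.44. There the scalings gave 1 up and 0 down (quantile) and 1 up and 3 down (equal totals).

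Beside the larger Jak2 and Tyk2 responses in KO cells at 6 h, 6 of 10 type I targets and 5 of 8 type II targets also had larger responses by the same test (10.5% of all genes were called in either direction), with medians of 0.81 and 0.64 against 0.02 over all genes. Stat2 (0.44) and Irf9 (0.41) were also called as larger on the deposited scale, but not as larger under the other scalings. With quantile normalization and equal totals the type I counts were 4 up and 0 down and 5 up and 0 down, and the type II counts 4 up and 0 down and 5 up and 1 down. In mock cells Stat4, a STAT of IL-12 signalling, was at -0.91 in KO minus WT, and 5 of 8 type II targets were lower in KO mock cells, where 22.2% of all genes were called in either direction (0 up and 5 down and 0 up and 5 down under the other scalings).

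Over the 12 group means, Ifngr1 correlated negatively with each other member, from -0.649 with Ifnar2 to -0.851 with Jak2 (Pearson r). Ifnar1 and Tyk2 were the most alike pair of members, at 0.952. Among 9782 other genes with a mean of at least 50, the patterns most like that of Tyk2 were those of Lacc1 (0.996), Otud5 (0.995) and Lpcat2 (0.992). For Jak2 they were Slc30a4 (0.976), Dusp5 (0.971) and Arc (0.969), and for Jak1 Sppl2a (0.966), Plekhg1 (0.966) and Dnajc13 (0.964). Ifngr1 was followed most closely by Rin3 (0.987), Mast1 (0.987) and Kat6b (0.984), and Ifngr2 by Stx2 (0.989), Stx4a (0.979) and Cyba (0.977). For Ifnar1 the genes were Nos2 (0.986), Fth1 (0.986) and Sod2 (0.986), and for Ifnar2 Fth1 (0.973), Dopey2 (0.972) and Gga1 (0.972). These are the highest of many correlations over 12 points that share libraries and size factors, and are given as a description.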

How the data were processed

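RNA sequencing of 36 mouse libraries (100-base single reads, per the labels) was deposited as 1 table of a normalized signal per gene. Per the submitters' processing notes, TopHat, Cufflinks and DESeq2 were used with GRCm38 (mm10). For the versions, the annotation and the use of strand, nothing is given in the sources used. The deposited signal was read counts divided by 1 size factor per library: whole reads were recovered for 100% of values within 0.01 read. Raw totals were 4740909 to 14255730 reads per library.

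Genes averaging 10 or more normalized counts over all libraries, 11853 in number, were fitted with limma 3.58.1 (R 4.3.3) on log2(normalized count + 1), which understates changes of low genes, with 12 group means over 36 libraries (24 residual degrees of freedom) and a mean-variance trend. All p-values were two-sided, and adjusted p is Benjamini-Hochberg over all genes tested in that comparison. edgeR 4.0.16 (quasi-likelihood) and DESeq2 1.42.0 on recovered reads, other scalings, pseudocounts, filters, a replicate block and leaving out each library were alternatives. The code was tested on simulated data.

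Groups came from the labels. Members and gene lists were chosen with earlier results of these data known. Some results of the wider pathway are not reported here. The rule for named genes was all 7 members, at most 4 per list, and the 3 genes most correlated with each member over 12 group means. Replicate numbers recur between groups, but residuals of same-numbered libraries correlated at a median of 0.0017 (-0.114 to 0.183), so the numbers were not taken as pairs. Levels per kb used protein-coding transcripts of the GENCODE annotation of GRCm38, and promoters came from RefSeq.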

Additional observations from a re-analysis of the deposited data

Results flagged for a closer look

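The responses of KO and WT cells to PAMP RNA differed by the interaction term of limma (Benjamini-Hochberg adjusted over all genes) for Jak2 and Tyk2 at 3 h and for these and Ifnar1 and Ifngr1 at 6 h. The log2 difference, KO response minus WT response, was 0.39 for Jak2 (adjusted p = 4.8e-05) and 0.25 for Tyk2 (adjusted p = 0.0346) at 3 h. At 6 h it was 0.44 for Jak2 (adjusted p = 2.28e-06), 0.40 for Tyk2 (adjusted p = 8.67e-05), 0.22 for Ifnar1 (adjusted p = 0.016) and -0.35 for Ifngr1 (adjusted p = 0.00579). Jak2 is the one of these with lower KO than WT counts in both mock and PAMP RNA libraries at each time.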

How the results depend on the processing

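Of 53 called changes of the members over 14 comparisons, 31 kept their call under every alternative run. Of 1862 member values under alternatives, 49 lost the call in the same direction, 11 gained one, and 20 changed sign with a call before or after, all of these 20 under another scaling. Of the remaining 1782, 67 changed sign but were called on neither side. Quantile normalization gave, in WT cells at 3 h, Ifnar1 -0.10, Ifngr2 -0.17 and Jak1 -0.13, and at 6 h Ifnar1 -0.20 and Jak1 -0.23. In KO cells it gave Ifnar1 -0.22, Ifngr2 -0.26 and Jak1 -0.21 at 3 h, and Ifnar1 -0.12 and Jak1 -0.32 at 6 h. Equal total reads gave, in WT cells, Ifnar1 -0.042 at 3 h and Ifnar1 -0.10, Ifnar2 -0.14 and Jak1 -0.18 at 6 h. In KO cells it gave Ifnar1 -0.14, Ifngr2 -0.23 and Jak1 -0.13 at 3 h, Ifnar2 -0.15 and Jak1 -0.27 at 6 h, and Ifnar2 -0.21 for the change of the response between 3 and 6 h. Members called for the KO minus WT response at 3 h went from 2 to 1 under both scalings and to between 1 and 2 when a library was left out. For the response at 6 h minus 3 h they went from 4 to 1 under both scalings in WT cells, and from 5 to 2 under quantile normalization in KO cells. The scalings shift all genes, as given with the medians above; a further cause was not tested.

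With the replicate number as a block, members called were 0, 4 and 7 for the WT response at 1, 3 and 6 h, 0, 6 and 7 for the KO response, 0, 2 and 4 for the difference of responses and 3 for KO minus WT in mock, and no call count of the members changed. All genes called for the WT response at 6 h went from 7754 to 7762. The numbers do not pair the libraries: 12 of 36 libraries correlated best with their own number. At 304 to 4815 reads per library for these genes, the smallest changes called were 0.10 to 0.12, close to where single libraries decide the call.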

Other observations

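Genes within 500 kb of Jak2 and of the receptor cluster on chromosome 16 were listed after the values of Jak2 had been seen. Around Jak2, 12 other genes were tested, and 3 differed between KO and WT mock cells by limma, against 22.2% of all genes. Pdcd1lg2, which encodes PD-L2, was at -0.73, Cd274, which encodes PD-L1, at -0.21, and Ric1 at -0.10. In the WT response at 6 h 9 of the 12 were called, 7 of them up, against 65.4% of all genes called and 32.1% up. Insl6, next to Jak2, was at 1.99 and Cd274 at 1.98, both above Jak2 itself at 0.75. Around Ifnar2, Ifnar1 and Ifngr2, 17 other genes were tested. Of these 1 differed between genotypes in mock cells, Slc5a3 at -0.21, against 22.2% of all genes. In the WT response at 6 h 12 were called, 8 of them up, against 65.4% of all genes called and 32.1% up. Il10rb, between the receptor genes, was at 0.47, while Dnajc28 was at -1.89 and Itsn1 at -1.08, so changes in this stretch went in both directions.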
